A study of Mus musculus with 6 samples.

Results

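The genes described here encode the working parts of the lysosome: 33 genes for its hydrolases and their cofactors, its membrane proteins, 2 subunits of its proton pump, and the TFE transcription factors. They were chosen by symbol, with earlier results of these data known and with the cathepsins left out. Every probe set (a group of array probes designed against 1 transcript) annotated to 1 of these symbols alone was taken. That gave 71 probe sets for 32 of the 33 genes, out of 45037 probe sets on the array that are not controls. No probe set was named for Cd63, a tetraspanin of late endosomes and lysosomes, in the annotation used, so it has no values here. Of the 71 probe sets, 53 could be tested, for 31 genes of the 9641 tested in all.

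The cells were 32D, an IL-3-dependent myeloid progenitor line that grew out of bone marrow of C3H/HeJ mice infected with Friend leukemia virus. In the first group, 3 samples carried the Nup98::Nsd1 fusion gene, a fusion found in patients with acute myeloid leukaemia, in which part of a nucleoporin is joined to a histone H3 lysine 36 methyltransferase. In the second group, 3 samples were mock-transduced cells, labelled MSCVpuro after the retroviral vector. Both groups are 1 cell line, and the labels give no treatment or time and do not say whether transduced cells were cloned or pooled, or whether samples came from separate cultures, so p-values measure the spread between these samples only, which may be technical.

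Lysosomes are acidic organelles in which hydrolases break down sugars, lipids, proteins and glycosaminoglycans that arrive by endocytosis, phagocytosis and autophagy. The proton pump (V-ATPase) keeps them acidic, heavily glycosylated membrane proteins such as LAMP1 and LAMP2 line them, and in phagocytes of the myeloid lineage they digest engulfed material. TFEB, TFE3 and MITF are related basic helix-loop-helix transcription factors. TFEB and TFE3 enter the nucleus when the kinase mTORC1 is inactive. The factors bind an element called CLEAR, a palindrome with the core CACGTG, in the promoters of many lysosomal genes.

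The promoters of the members were searched for this element. It is known from promoters of lysosomal genes, so a high share among them describes the choice of genes and is not a result of these arrays. RefSeq promoter windows on GRCm38.p6, running from 250 bases before to 50 after a transcription start, were at hand for 29 of the 33 genes (36 windows); Asah1, Atp6v1h, Galns and Npc1 were not searched. The core CACGTG, which reads the same on both strands, was found for 10 of the 29 genes (34.5%), against 2187 of 27025 genes in the whole table (8.09%). That table also holds genes not detected in these cells. Among tested genes outside the 33 that had a window, 957 held the core and 6953 did not. The full element, taken here as the core with gt before it and ac after it, was found for 1 member, Cln3 (3.45%), against 100 of all genes (0.37%). The 10 genes held 16 cores between them, each beginning upstream of the start and 11 within 100 bases of it. That of Atp6v0d1 begins 3 bases before the start and runs across it. The stretches below show, for each of the 10 genes, 30 bases in the direction of transcription around the core whose 4 flanking letters match the full element best, with the core in capitals.
Arsa, chr15:89477423-89477452, minus strand: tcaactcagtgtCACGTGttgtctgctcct
Atp6v0d1, chr8:105566050-105566079, minus strand: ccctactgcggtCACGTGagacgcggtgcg
Cln3, chr7:126583340-126583369, minus strand: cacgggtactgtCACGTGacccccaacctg
Gaa, chr11:119267811-119267840, plus strand: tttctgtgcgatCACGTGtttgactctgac
Gla, chrX:134601182-134601211, minus strand: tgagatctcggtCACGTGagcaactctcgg
Glb1, chr9:114401018-114401047, plus strand: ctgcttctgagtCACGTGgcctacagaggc
Lamp1, chr8:13159121-13159150, plus strand: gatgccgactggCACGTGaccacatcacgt
Mcoln1, chr8:3500462-3500491, plus strand: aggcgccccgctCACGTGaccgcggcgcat
Naglu, chr11:101070009-101070038, plus strand: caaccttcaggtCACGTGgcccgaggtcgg
Sgsh, chr11:119355522-119355551, minus strand: gggcctgccgtgCACGTGaccgtggggagc

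Cln3 matched the full element at each of its 4 flanking letters, and the core lay 121 bases upstream of the start of that window. Cln3 has another window, at chr7:126585768-126586067 on the minus strand, which held 0 cores. Which start these cells use was not examined. Atp6v0d1, Gla, Glb1, Lamp1, Mcoln1 and Naglu matched at 3 of the 4, Arsa and Sgsh at 2, and Gaa at 1. Lamp1 held 4 cores and Mcoln1, Gla and Cln3 held 2 each. The windows of Lamp1 and Mcoln1 are shown whole because they hold the closest runs of cores near a start, again with each core in capitals.
Lamp1, chr8:13158911-13159210, plus strand: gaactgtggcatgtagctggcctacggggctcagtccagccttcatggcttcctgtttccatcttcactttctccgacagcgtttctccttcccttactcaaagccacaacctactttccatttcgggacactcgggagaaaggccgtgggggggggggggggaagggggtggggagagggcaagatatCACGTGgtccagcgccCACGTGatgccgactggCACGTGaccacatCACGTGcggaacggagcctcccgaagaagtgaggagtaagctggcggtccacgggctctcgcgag
Mcoln1, chr8:3500269-3500568, plus strand: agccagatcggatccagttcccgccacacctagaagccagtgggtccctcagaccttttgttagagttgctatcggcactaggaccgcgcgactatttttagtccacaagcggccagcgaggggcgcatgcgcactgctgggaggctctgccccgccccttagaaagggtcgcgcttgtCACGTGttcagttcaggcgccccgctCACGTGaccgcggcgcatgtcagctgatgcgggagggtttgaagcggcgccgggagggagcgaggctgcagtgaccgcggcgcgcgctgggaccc

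A match to these letters is a description of the window and not evidence that a factor bound there. No binding was measured, and the arrays measured mRNA, not where in the cell the TFE proteins were.

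Signals were MAS5 signals on a linear scale, taken to log2 and fitted with limma over all 20494 tested probe sets, with p-values adjusted over them by the Benjamini-Hochberg method and a threshold of 0.05. A gene is represented by its brightest tested probe set, and fold changes are Nup98::Nsd1 over mock. Of the 31 tested lysosomal genes, 24 rose in Nup98::Nsd1 cells (77.4%), against 42.9% of all tested genes, and 4 fell (12.9%), against 29.5%. Their median log2 fold change was 0.56, against 0.12 over all tested genes. The groups did not overlap for 29 of the 31, which was also so for 75.1% of all tested genes. Counted by probe set, 38 of 53 rose (71.7%, against 42.3% of all tested probe sets) and 7 fell (13.2%, against 27.6%). In bulk RNA, a change in the share of cells of some kind and a change in RNA per cell cannot be told apart.

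**Figure D1:**
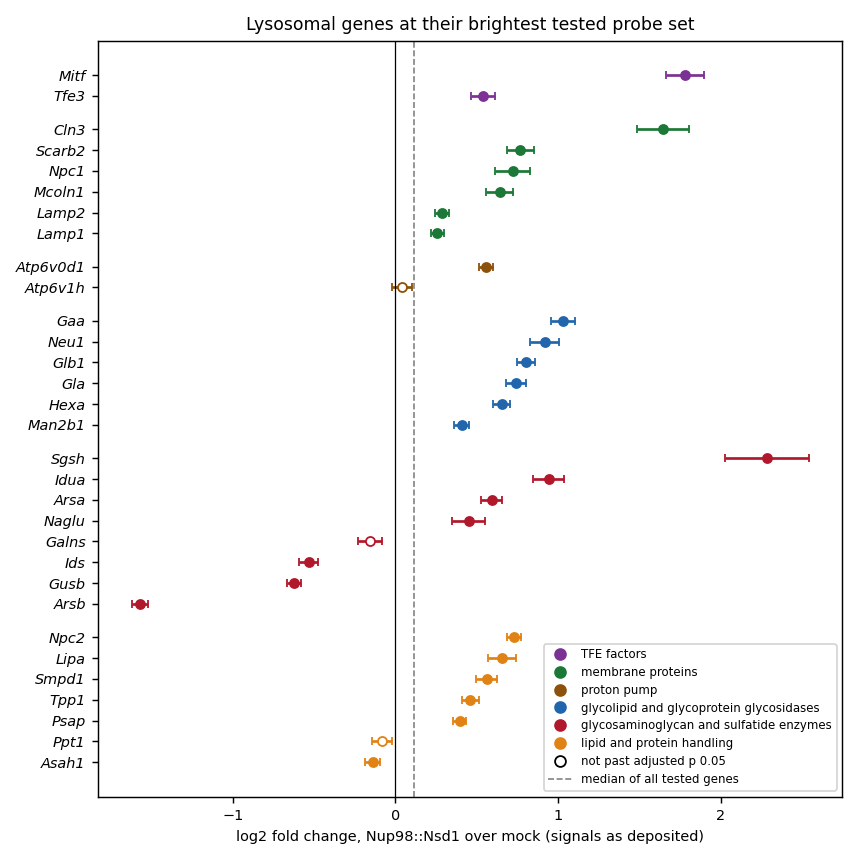
Log2 fold change of each tested lysosomal gene at its brightest tested probe set, Nup98::Nsd1 over mock, with its standard error as a bar (n = 3 arrays each), grouped by role. Open circles did not pass an adjusted p of 0.05, and the dashed line is the median of all tested genes, 0.12; 24 genes lie to the right of it and 7 to the left.

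Several facts about the arrays moved with the groups and touch each result below. The Nup98::Nsd1 arrays had 47.6% to 48.2% of their probe sets Present, against 45.1% to 45.9% on the mock arrays. For Actb, the 3′ control probe set over the 5′ one, which reflects how intact and how fully labelled the RNA was, came to 1.47 ± 0.0263 on Nup98::Nsd1 and 1.18 ± 0.0304 on mock arrays (SD, n = 3 each), and that of Gapdh was 0.816 ± 0.0235 and 0.760 ± 0.0156 in the same order. Of 10 monocyte and macrophage markers, 9 had a probe set and 7 were tested, of which 5 rose and 1 fell, and their summed signal was 11305 to 11431 on Nup98::Nsd1 arrays, against 6821 to 7111 on mock arrays; Cd14 was Present on no array. Of 10 mature neutrophil markers, 5 were tested, 2 rose and 2 fell, with summed signals of 20705 to 21487 and 9792 to 10073 in the same order, and Ltf, Camp, Mmp8 and Cxcr2 were Present on no array. Lcn2 alone set that direction: without it the sums were 5915 to 6367 on Nup98::Nsd1 arrays, against 7768 to 8091 on mock arrays. Of 7 mast cell and basophil markers, 4 were tested, 2 rose and 2 fell, with summed signals of 4357 to 4470 and 9184 to 9594, and Tpsb2, Hdc and Mcpt4 were Present on no array. Fcer1a alone set that one: without it the sums were 2934 to 3150 on Nup98::Nsd1 arrays, against 2008 to 2172 on mock arrays. Of 8 markers of the line's own progenitor type, 6 were tested, 1 rose and 5 fell, with summed signals of 28919 to 29048 and 46399 to 50479, and Kit and Cd34 were Present on no array. No lymphocyte or fibroblast marker was detected well enough to be tested. The part of these differences in the lysosomal changes was not tested.

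The deposited scaling left the median log2 fold change of all tested probe sets at 0.15, so the calls were repeated with other scalings. With each array centred on the median of its tested probe sets, 22 lysosomal genes rose (71.0%, against 31.9% of all genes) and 6 fell (19.4%, against 39.1%). With quantile normalization 24 rose and 4 fell (36.3% and 33.1% of all genes), and with 75th percentile centring 22 rose and 7 fell (30.3% and 40.9% of all genes). Scaling to the hybridization controls, RNA added to each sample before hybridization, moved the median of all tested probe sets to -0.18; then 16 lysosomal genes rose (51.6%, against 21.8%) and 7 fell (22.6%, against 47.4%). The rises of 16 genes and the falls of 3 (Arsb, Gusb and Ids) were called under each of the 5 scalings tried. The share of all tested genes called under each of the 5 was not counted. It cannot exceed the smallest share under any of these scalings, 21.8% for rises and 29.5% for falls. The median of the 31 lysosomal genes lay above that of all genes under each scaling, at 0.23 against -0.22 with the hybridization controls.

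**Figure D2:**
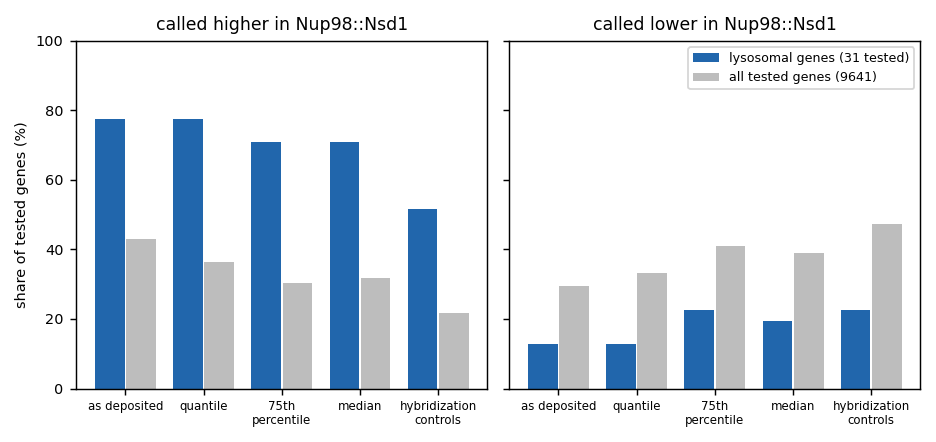
Share of tested genes called higher (left) and lower (right) in Nup98::Nsd1 cells at an adjusted p of 0.05, under 5 scalings of the arrays, for the 31 lysosomal genes (blue) and all 9641 tested genes (grey). The lysosomal share of higher calls runs from 51.6% with the hybridization controls to 77.4% as deposited, and the share over all genes from 21.8% to 42.9%.

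Among the TFE factors, Mitf rose and Tfe3 rose, while Tfeb was not detected well enough to be tested. Mitf, the member of the family best known from melanocytes, mast cells and osteoclasts, gave signals of 650, 542 and 635 on the Nup98::Nsd1 arrays, against 157, 182 and 193 on the mock arrays. Each Nup98::Nsd1 array thus lay far above each mock array, and Mitf was 3.44-fold higher (log2 fold change 1.78, SE 0.117, adjusted p = 1.04e-07). Its other probe set was Present on 1 Nup98::Nsd1 array and on no mock array, at 69.9, 72.1 and 96.5 against 31.2, 2.89 and 9.64, and was not tested. Which Mitf isoform each probe set reads was not examined.

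Tfe3, which shares many lysosomal targets with Tfeb, gave 873, 814 and 928 in Nup98::Nsd1 cells, against 601, 621 and 575 in mock cells. The groups did not overlap, and Tfe3 rose 1.45-fold (log2 fold change 0.54, adjusted p = 4.16e-05), which did not pass with hybridization control scaling (0.21, adjusted p = 0.0752). The only Tfeb probe set was called Absent on all 6 arrays, at 270, 282 and 286 in Nup98::Nsd1 cells and 145, 64.4 and 113 in mock cells. Those signals do not overlap, but a probe set called Absent on every array gives no fold change here.

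All 6 tested membrane proteins rose, by 0.26 to 1.65 on the log2 scale, against 42.9% of all tested genes that rose. Lamp1 and Lamp2 did not pass with median or 75th percentile centring. With the hybridization controls these 2 stood at -0.07 and -0.05, also not past the threshold. Cln3, a membrane protein lost in juvenile neuronal ceroid lipofuscinosis, gave 404, 446 and 350 in Nup98::Nsd1 cells, each Present, against 108, 123 and 155 in mock cells, each Absent. Cln3 rose at least 3.13-fold (adjusted p = 2.33e-06). Such lower bounds are on the deposited scale: where one group had no Present call, each of its arrays entered with its own signal or, if that was smaller, with the dimmest Present signal of the array. They are ratios of geometric means, so they can differ slightly from the ratio of the averages printed, and for the genes named here each array's own signal was the larger. The brightest Cln3 probe set could be tested only through its Present calls in Nup98::Nsd1 cells. The second Cln3 probe set, Present on all 6 arrays, also rose, with a log2 fold change of 1.71 (adjusted p = 3.82e-05).

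Mcoln1 encodes TRPML1, the lysosomal calcium channel. It gave 1012, 1042 and 871 in Nup98::Nsd1 cells, against 649, 641 and 583 in mock cells. It rose 1.56-fold without overlap of the groups (log2 fold change 0.64, adjusted p = 2.73e-05). Its other tested probe sets rose by 0.42 and 0.57, the last of them a dim one that no longer passed without Nup98::Nsd1 replicate 3 (adjusted p = 0.0614), mock replicate 1 (adjusted p = 0.0542) or mock replicate 2 (adjusted p = 0.0637).

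Scarb2 encodes LIMP-2, the receptor that carries glucocerebrosidase to lysosomes. Its signals were 1642, 1726 and 1742 in Nup98::Nsd1 cells, against 1131, 1021 and 867 in mock cells. The mock arrays were more spread than the Nup98::Nsd1 arrays, all below them, and Scarb2 rose 1.70-fold (adjusted p = 7.49e-06). The dimmer of its probe sets rose by 0.23 on the log2 scale (adjusted p = 0.0119), which did not pass without mock replicate 2 (0.16, adjusted p = 0.0573) and turned to -0.10, not past the threshold, with the hybridization controls.

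The 2 abundant membrane glycoproteins moved least of the 6. Lamp1 gave 7413, 7489 and 7664 in Nup98::Nsd1 cells, against 6118, 6246 and 6519 in mock cells, a rise of 1.2-fold (log2 fold change 0.26, adjusted p = 0.000136). Lamp2, at 4359, 4112 and 4262 against 3373, 3436 and 3634, rose 1.22-fold (log2 fold change 0.29, adjusted p = 0.000143). The other 3 Lamp2 probe sets rose by 0.21, 0.58 and 0.80; Lamp2 is spliced into isoforms with different ends, and which isoform each probe set reads was not examined. Npc1, which exports cholesterol from the lysosome together with Npc2, averaged 404 ± 31.3 in Nup98::Nsd1 and 245 ± 13.2 in mock cells (SD, n = 3 each) and rose by 0.72 on the log2 scale (adjusted p = 7.98e-05).

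The 2 subunits of the proton pump differed from each other. Atp6v0d1, a subunit of the membrane sector, averaged 5818 ± 193 in Nup98::Nsd1 and 3955 ± 167 in mock cells (SD, n = 3 each), a rise of 0.56 on the log2 scale (adjusted p = 6.68e-07). Atp6v1h, a regulatory subunit of the cytosolic sector, averaged 1613 ± 109 and 1567 ± 83.9 in the same order (log2 fold change 0.04, SE 0.063, adjusted p = 0.578), and with 75th percentile centring and the hybridization controls it was called lower, at -0.15 and -0.29.

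**Figure D3:**
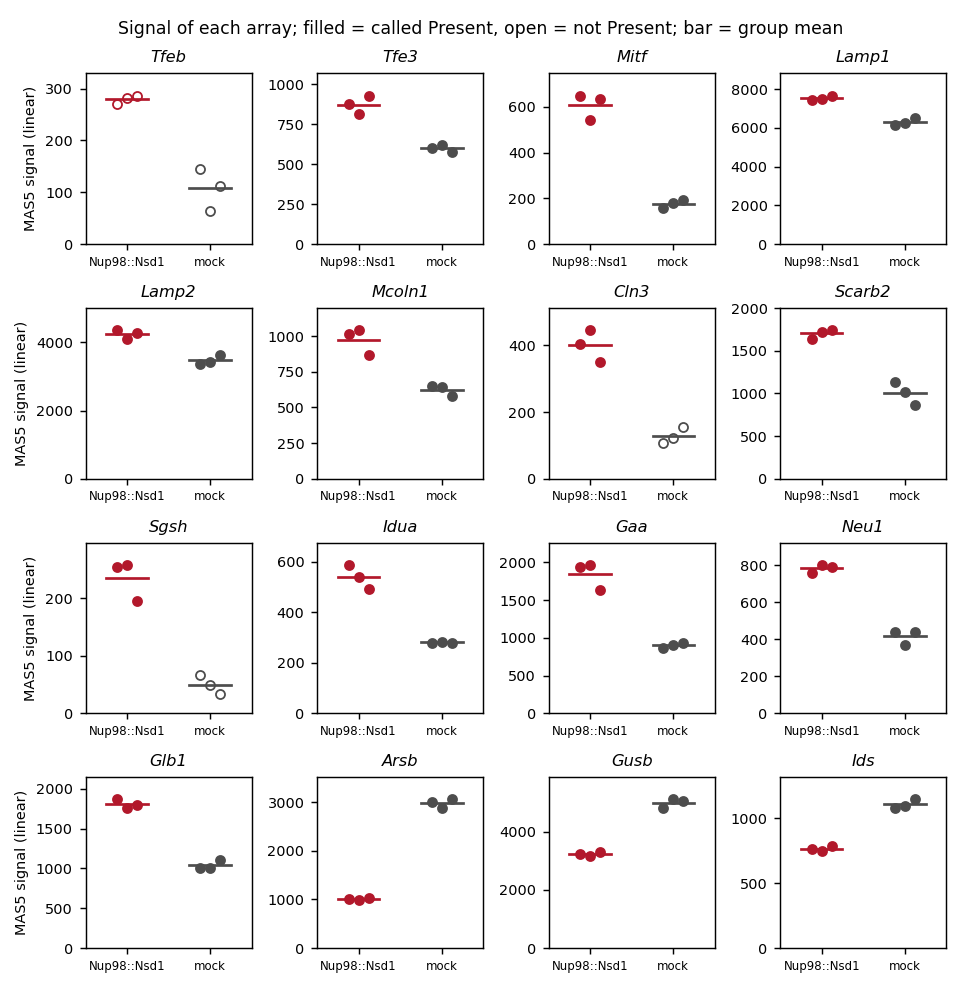
MAS5 signal on each array (linear scale, each panel with its own axis from 0) for 16 lysosomal genes, with Nup98::Nsd1 arrays left and mock arrays right; filled points were called Present, open points were not, and bars are group means. The groups do not overlap in any of the 16 panels, nor do they for 75.1% of all tested genes, and many of the panels were chosen for their large changes. Arsb, Gusb and Ids lie lower in Nup98::Nsd1 cells, and Tfeb is Absent on each array.

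The 6 glycosidases that take sugars off glycolipids, glycogen and glycoproteins all rose, by 0.41 to 1.03 on the log2 scale. Of all tested genes, 42.9% rose. Under each scaling 5 of the 6 rose, while Man2b1 stood at 0.08 (adjusted p = 0.269) with the hybridization controls. Gaa, the acid alpha-glucosidase that digests lysosomal glycogen, gave 1943, 1966 and 1626 in Nup98::Nsd1 cells, against 868, 901 and 934 in mock cells, 2.04-fold higher (adjusted p = 2.35e-07). That probe set is of the type that may also match other transcripts, and the other Gaa probe set rose by 0.66. The same limit holds for the brightest probe sets of Mcoln1, Lipa, Dnase2a, Laptm5, Atp6v0b, Flcn, Wipi1 and Gabarapl1. Neu1, the lysosomal sialidase, gave 761, 803 and 791 in Nup98::Nsd1 cells, against 440, 368 and 442 in mock cells. It was 1.89-fold higher (adjusted p = 2.37e-06).

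Glb1, the beta-galactosidase of ganglioside breakdown, gave 1867, 1762 and 1801 in Nup98::Nsd1 cells, against 1008, 1007 and 1104 in mock cells. It rose 1.74-fold, with each group's arrays close together (adjusted p = 1.97e-07). Of the other 3, Gla, the alpha-galactosidase lost in Fabry disease, averaged 1240 ± 53.9 in Nup98::Nsd1 and 741 ± 27.1 in mock cells, a rise of 0.74 on the log2 scale. Hexa, the alpha subunit of the hexosaminidase lost in Tay-Sachs disease, averaged 5022 ± 297 and 3192 ± 148 in the same order, a rise of 0.65. Man2b1, the lysosomal alpha-mannosidase, averaged 5552 ± 213 and 4186 ± 142, a rise of 0.41, and its dimmer probe set did not pass (0.23, adjusted p = 0.11).

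The enzymes of glycosaminoglycan and sulfatide breakdown went in both directions. Of 8 tested, 4 rose and 3 fell (50% and 37.5%, against 42.9% and 29.5% of all tested genes). Their median log2 fold change was 0.15, against 0.12 over all tested genes. With median centring, 4 rose and 4 fell (50% each, against 31.9% and 39.1% of all tested genes). The median then turned to -0.02, against -0.05 over all genes. With the hybridization controls 3 rose and 4 fell (37.5% and 50%, against 21.8% and 47.4% of all tested genes). Both the largest rise and the largest fall among the lysosomal genes were in this group. Sgsh, the sulfamidase that acts on heparan sulfate, gave 254, 258 and 195 in Nup98::Nsd1 cells, each Present, against 67.4, 49.7 and 33.1 in mock cells, each Absent. It was at least 4.86-fold higher (adjusted p = 9.8e-06). Sgsh could be tested only because it was Present on the Nup98::Nsd1 arrays, the group where it was high. Its call therefore depends on that filter.

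Idua, the alpha-iduronidase that acts on heparan and dermatan sulfate, gave 587, 539 and 492 in Nup98::Nsd1 cells, against 278, 283 and 279 in mock cells. It rose 1.92-fold (adjusted p = 3.87e-06), and its second probe set rose by 0.55 on the log2 scale (adjusted p = 0.00581). Arsa, the arylsulfatase that acts on sulfatide, averaged 1463 ± 62.1 in Nup98::Nsd1 and 972 ± 57.9 in mock cells and rose by 0.59. Naglu, an alpha-N-acetylglucosaminidase of heparan sulfate breakdown, averaged 725 ± 66.5 and 533 ± 67.4 in the same order and rose by 0.45 (adjusted p = 0.00213), but stood at 0.12 (adjusted p = 0.374) with the hybridization controls.

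Arsb, the arylsulfatase that acts on dermatan and chondroitin sulfate, gave 1000.4, 981 and 1033 in Nup98::Nsd1 cells, against 3014, 2872 and 3056 in mock cells. It was 2.97-fold lower (log2 fold change -1.57, SE 0.050, adjusted p = 4.89e-10), and its dimmer probe set gave -1.41. Gusb, the beta-glucuronidase, gave 3228, 3176 and 3311 in Nup98::Nsd1 cells, against 4815, 5099 and 5058 in mock cells. It was 1.54-fold lower (adjusted p = 1.35e-07), and its other probe set was 2.22-fold lower (adjusted p = 2.46e-08). For both genes the Nup98::Nsd1 arrays lay well below the mock arrays at each tested probe set.

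Ids, the iduronate 2-sulfatase, gave 761, 748 and 785 in Nup98::Nsd1 cells, against 1077, 1097 and 1145 in mock cells, 1.45-fold lower at its brightest probe set (adjusted p = 8.44e-06). Its 2 dimmer tested probe sets overlapped between the groups and stood at -0.20 and -0.36, not past the threshold, and the mean of its 3 tested probe sets was at -0.36 (adjusted p = 0.0539). Galns, the sulfatase that acts on keratan and chondroitin sulfate, averaged 505 ± 16.4 in Nup98::Nsd1 and 563 ± 12.4 in mock cells (log2 fold change -0.16, adjusted p = 0.0783), and was called lower under each of the other 4 scalings, at -0.33 with median centring.

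Of the 7 genes of lipid and protein handling, 5 rose (71.4%, against 42.9% of all tested genes) and 1 fell (14.3%, against 29.5%). With the hybridization controls 2 rose and 2 fell (28.6% each, against 21.8% and 47.4% of all tested genes). Npc2, the soluble carrier that hands cholesterol to Npc1, averaged 9556 ± 19.5 in Nup98::Nsd1 and 5776 ± 260 in mock cells (SD, n = 3 each), a rise of 0.73 on the log2 scale (adjusted p = 3.85e-08), and its other tested probe sets rose by 0.78 and 0.84. Lipa, the acid lipase that splits cholesteryl esters and triglycerides, averaged 724 ± 57.1 and 460 ± 34.0 in the same order and rose by 0.65. Its 3 tested probe sets were the most spread of any lysosomal gene, at 0.18 (not past the threshold), 0.65 and 1.18.

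Smpd1, the acid sphingomyelinase, averaged 974 ± 49.96 in Nup98::Nsd1 and 660 ± 22.0 in mock cells and rose by 0.56. Tpp1, a tripeptidyl peptidase, averaged 2195 ± 26.8 and 1596 ± 73.7 in the same order and rose by 0.46. Psap, the precursor of the saposins that present lipids to hydrolases, averaged 4224 ± 39.0 and 3215 ± 50.3 and rose by 0.39, while its other probe set stood at -0.01 (adjusted p = 0.841). With the hybridization controls Smpd1, Tpp1 and Psap did not pass, at 0.23, 0.13 and 0.06.

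Asah1, the acid ceramidase, gave 2551, 2551 and 2657 in Nup98::Nsd1 cells, against 2776, 2803 and 2968 in mock cells. It fell by 0.14 on the log2 scale (adjusted p = 0.0175), the smallest called change of the lysosomal genes. The call did not hold without Nup98::Nsd1 replicate 1 (adjusted p = 0.0584), Nup98::Nsd1 replicate 2 (adjusted p = 0.0502) or mock replicate 3 (adjusted p = 0.0657), nor with quantile normalization (-0.06, adjusted p = 0.227). With 75th percentile centring, median centring and the hybridization controls the fall was called and larger, at -0.34, -0.31 and -0.47. Ppt1, a palmitoyl-protein thioesterase, averaged 1183 ± 44.1 in Nup98::Nsd1 and 1253 ± 66.3 in mock cells at its brightest probe set (log2 fold change -0.08, adjusted p = 0.236). That probe set was called lower with 75th percentile centring, median centring and the hybridization controls, at -0.28, -0.25 and -0.41. The dimmer averaged 681 ± 39.5 and 1006 ± 18.8 and fell by 0.56 (adjusted p = 1.3e-05).

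**Figure D4:**
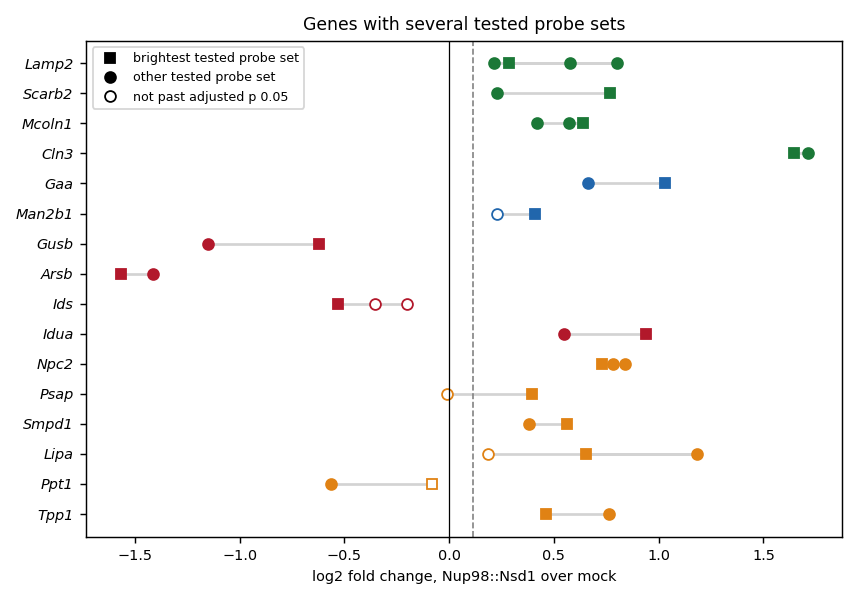
Log2 fold change, Nup98::Nsd1 over mock, of each tested probe set of the 16 lysosomal genes with more than 1; squares are the brightest probe set, open symbols did not pass an adjusted p of 0.05, and the dashed line is the median of all tested genes. As deposited, no gene has calls in both directions, though Psap does with median or 75th percentile centring, and Lipa is spread most, from 0.18 to 1.18.

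Of the 31 tested genes, 16 had several tested probe sets, and none of these 16 was called higher at one and lower at another, which was the case for 598 of 4711 such genes over the whole array (12.7%). That holds as deposited: with median centring Psap was called higher at its brightest probe set (0.22) and lower at the other (-0.18, adjusted p = 0.00534), and likewise with 75th percentile centring, against 564 and 561 of the 4711 genes over the array. In 5 of the 16 (Man2b1, Ids, Psap, Lipa and Ppt1) one probe set passed the threshold and another did not. The remaining 18 probe sets of the lysosomal genes were too dim to be tested, and 11 of them were Present on no array.

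The 10 genes with a CACGTG core in the promoter window were all tested and all rose, with a median log2 fold change of 0.69, against 42.9% of all tested genes that rose. Among them, Sgsh and the brightest Cln3 probe set could be tested only through their Present calls in Nup98::Nsd1 cells. Of 957 other tested genes with a core, 42.9% rose, and of 6953 without one, 42.7%. Of 17 tested genes whose windows held no core, 13 rose and 3 fell, with a median of 0.54. The difference between the sets was not tested, and with the hybridization controls Lamp1 and Naglu of the 10 did not pass, Lamp1 with the sign turned. The 3 fallers with a window, Arsb, Gusb and Ids, held no core in it.

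Other genes of the same organelle were taken from lists. Of all tested genes, 42.9% rose and 29.5% fell as deposited, and 21.8% and 47.4% with the hybridization controls. The list counts are to be set beside these shares. Of 11 tested hydrolases and activators outside the 33, 2 rose and 2 fell, and with the hybridization controls 2 rose and 6 fell. Dnase2a, the acid endonuclease, was Present on no mock array and rose at least 2.45-fold. Like Sgsh, it could be tested only through its Present calls in Nup98::Nsd1 cells. Acp2, an acid phosphatase, rose 1.71-fold. Naaa, an acid amidase, was 2.02-fold lower and Manba, the beta-mannosidase, 1.2-fold lower. The median of this list was 0.10, against 0.56 for the 31 genes.

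Of 14 other lysosomal membrane proteins tested, 9 rose and 1 fell, with a median of 0.73, and with the hybridization controls 7 rose and 3 fell. Leaving out any 1 of the 6 arrays gave 8 rises. Tmem192, a transmembrane protein of lysosomes, rose 2.24-fold, and Clcn7, the chloride-proton exchanger, 2.15-fold. Tpcn1, an endolysosomal cation channel, rose 1.92-fold, and Laptm5, a membrane protein of blood cells, 1.61-fold.

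Of 13 other V-ATPase subunits, 6 rose (46.2%) and 3 fell (23.1%), near the shares of all tested genes. Their median was 0.13, against 0.12 over all tested genes. With the hybridization controls 4 rose and 7 fell. Atp6v1g1 rose 2.17-fold, Atp6v0b 1.97-fold, and Atp6v1d and Atp6v0a2 1.68-fold each. Of 8 genes that tag enzymes with mannose 6-phosphate or sort them, 3 rose and 4 fell, and their median was -0.15. Sort1, the sorting receptor sortilin, averaged 808 ± 50.1 in Nup98::Nsd1 and 132 ± 25.7 in mock cells (SD, n = 3 each), where it was called Absent on each array, and was at least 6.18-fold higher (adjusted p = 2.25e-08). Sort1, too, could be tested only through its Present calls in Nup98::Nsd1 cells. Gga2, an adaptor of that pathway, rose 1.59-fold, while Gnptab, a subunit of the enzyme that makes the tag, was 1.74-fold lower and M6pr, the cation-dependent mannose 6-phosphate receptor, 1.28-fold lower.

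Of 16 genes of the mTORC1, Ragulator and folliculin arm that acts on TFEB, 10 rose and 3 fell, against 7 and 5 with the hybridization controls. The 16 include Tfec, a TFE family member that is not itself part of that arm and did not pass (-0.09). Flcn, the folliculin that acts on Rag GTPases, rose 2.11-fold, the Rag GTPase Rragc 1.63-fold, and the Ragulator subunits Lamtor1 and Lamtor2 1.55-fold and 1.30-fold; Lamtor2 did not pass with the hybridization controls (0.05, adjusted p = 0.449). Of 15 autophagy genes, 10 rose and 3 fell, against 6 and 5 with the hybridization controls. Sqstm1, the cargo receptor p62, averaged 9211 ± 104 in Nup98::Nsd1 and 2980 ± 33.3 in mock cells and rose 3.09-fold (adjusted p = 6.34e-11). Wipi1, which acts at the forming autophagosome, rose 2.36-fold, Gabarapl1, a relative of LC3, 1.99-fold, and Uvrag, a partner of the lipid kinase Vps34, 1.79-fold.

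**Figure D5:**
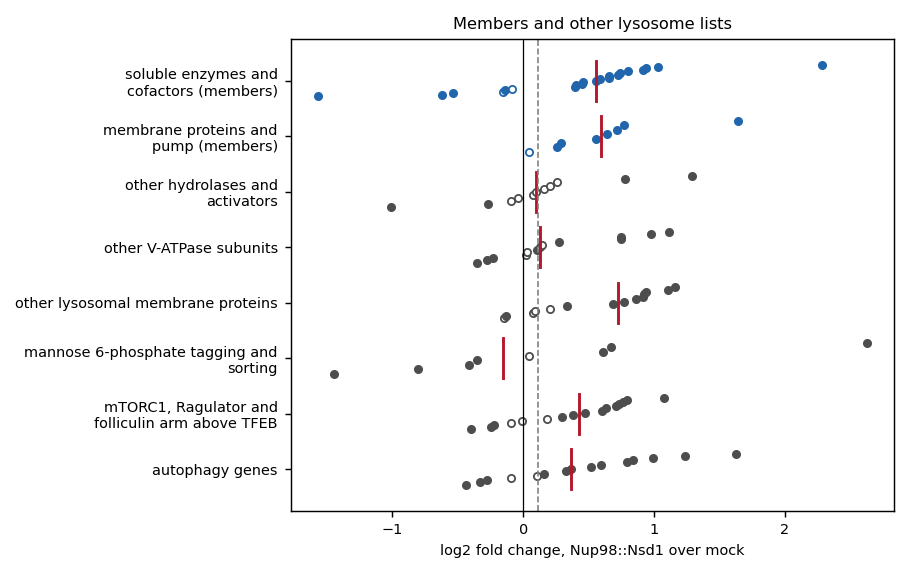
Log2 fold change, Nup98::Nsd1 over mock, of each tested gene of the lysosomal members without the TFE factors (blue, in 2 sets) and of 6 other lists (grey); open circles did not pass an adjusted p of 0.05, red bars are list medians and the dashed line is the median of all tested genes. The medians run from -0.15 for mannose 6-phosphate tagging and sorting to 0.73 for other lysosomal membrane proteins.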

How the data were processed

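RNA of 3 Nup98::Nsd1 and 3 mock samples was measured on Affymetrix Mouse430_2 arrays, 1 per sample. Per the submitters' processing notes, the authors used MAS5; per the file headers, the deposited values are a scaled signal intensity, a detection p-value and a detection call (Present, Marginal or Absent) per probe set. Neither its scaling target nor its version is stated.

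Of 45101 probe sets, 64 controls were left out. Symbols came from GEO's platform annotation of the array, updated through Entrez identifiers in a RefSeq table. Signals under 1 were set to 1 and taken to log2. Probe sets with 3 Present calls in either group were tested with limma 3.58.1 in R 4.3.3, with an intensity trend, and the script was tested on simulated data. Gene lists, members and alternatives were chosen with earlier results of these data known. By rule, signals on each array are printed for Tfeb, Tfe3, Mitf, Mcoln1, Lamp1, Lamp2 and Cd63, for the 8 largest rises and for up to 6 falls past the threshold; of other lists, up to 4 genes past the threshold with the smallest p were named. The number of arrays limits the precision. Alternatives were a pseudocount of 16, other detection filters, 4 other scalings, the values of the series matrix, a fit without the intensity trend, a replicate block, averaged probe sets, and leaving out each array.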

Additional observations from a re-analysis of the deposited data

How the results depend on the processing

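Among the lysosomal genes, 24 rose with the replicate block, a pseudocount of 16, the series matrix values, no intensity trend, the mean of probe sets and quantile normalization. With Present calls required on all 6 arrays, 23 rose. With no detection filter, 25 rose, which added Tfeb. As Tfeb was called Absent on all 6 arrays, it is not counted as a rise elsewhere here. The detection filters change which genes are tested. The share of all genes that rose was counted for the 5 scalings only. Leaving out each array gave 24 rises and 3 to 4 falls each time, with a median log2 fold change of 0.56 to 0.59. Replicate numbers showed no pairing (deviations of same-numbered arrays correlated at -0.017, -0.0111 and 0.0212), and with the replicate block 4 genes fell, as without it.

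Scaling moved the results most. The number of falls, 4 as deposited, was 7 with 75th percentile centring and 7 with the hybridization controls, and the median, 0.56 as deposited, was 0.51 with quantile normalization, 0.39 with median centring, 0.36 with 75th percentile centring and 0.23 with the hybridization controls. Lamp1 and Lamp2 turned to -0.074 and -0.046 with the hybridization controls, and Atp6v1h, not called as deposited, to -0.15 with 75th percentile centring and -0.29 with the hybridization controls. Among other lists, falls of hydrolases and activators, 2 as deposited, numbered 4 with 75th percentile or median centring, 6 with the hybridization controls and 5 with the mean of probe sets, and their rises 1 with Present calls on all 6 arrays. Falls of V-ATPase subunits, 3 as deposited, were 5 with 75th percentile or median centring and 7 with the hybridization controls. Falls of other membrane proteins, 1 as deposited, were 2 with either centring, 3 with the hybridization controls and, with limma and no intensity trend, 0 (2 at an unadjusted p under 0.05). With the hybridization controls 5 genes of the mTORC1 arm fell, and 6 autophagy genes rose and 5 fell. Leaving out each array gave 5 to 7 rises of V-ATPase subunits, 2 to 3 of hydrolases and activators and 10 to 11 of the mTORC1 arm; other membrane proteins rose in 8 cases each time, and the remaining list counts did not move. The cause was not tested.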
